A study of Drosophila melanogaster with 4 samples.

Results

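The 6 miRNAs described here are dme-miR-263a and its paralog dme-miR-263b, which act in sense organs, the neural dme-miR-124, dme-miR-7, which acts in the eye and other tissues, and the muscle miRNAs dme-miR-1 and dme-miR-133 (the prefix dme, for the species, is left out below). They were taken by name from the miRNA count table, with every arm, which gave 12 of the 495 mature miRNA loci in the table. The data come from small RNA sequencing of Drosophila melanogaster ovaries in 4 libraries. Both libraries called Ars2KD carried a germline knockdown of Ars2 (Ars2_sh1, VDRC stock 106344), an RNA-binding protein of the nuclear cap-binding machinery. Both control libraries, called wKD, carried a germline knockdown of the eye pigment gene white (white_sh, VDRC stock 30033). The sources used here give neither the age of the flies nor the driver of the hairpin nor whether flies were pooled, and the strength of the knockdown was not analysed here. Libraries are called number 1 and number 2 as labelled, and nothing in the labels says that equal numbers share flies or a day, or that replicates are separate sets of flies.

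A miRNA is cut from a hairpin precursor, and the 5p and 3p arms of the hairpin can each give a mature miRNA, one of which is usually kept in the Argonaute protein while the other is degraded. In flies, miR-263a and miR-263b protect the cells of sensory bristles from death by repressing the cell-death gene hid. Neurons across animals express miR-124, miR-7 acts in photoreceptor differentiation and in the division of germline stem cells in the fly, and miR-1 is a conserved muscle miRNA. The ovary holds a germline, an epithelium of follicle cells around it, and a contractile muscle sheath around the ovarioles.

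The miRNA table summed to 653566 counts for Ars2KD 1, 3681482 for Ars2KD 2, 1056475 for wKD 1 and 4554667 for wKD 2. Libraries of number 2 were more concentrated: their 10 most abundant miRNAs held 93.4% and 84.7% of counts in Ars2KD and wKD, against 71.5% and 71.0% in the libraries of number 1. They also had a count at fewer loci, 151 and 185 against 195 and 219, although they were deeper. The tissue label was compared with 2 marker lists. All 19 loci of the germline and maternal list had a count, with 19.7%, 53.8%, 20.4% and 49.2% of counts in Ars2KD 1, Ars2KD 2, wKD 1 and wKD 2. So had all 6 loci of the follicle cell list, with 14.7%, 9.37%, 12.8% and 10.8% in the same order. Most counts of the germline and maternal list belonged to miR-184-3p, which alone held 11.97%, 47.58%, 11.53% and 35.05% in that order. The higher sum of that list in the libraries of number 2 was thus mainly that of miR-184-3p and does not stand for the list as a whole. A count in any library was found for 257 of all 495 loci. Among the lists for other tissues given below, it was found for all 6 sense organ loci. It was also found for 10 of 12 gut, Malpighian tubule and fat body loci and for 10 of 12 testis-biased loci. For the head and nervous system list it was found for 9 of 20. Having a count thus does not single out the 2 marker lists.

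Together the 6 named miRNAs held 4.15% of miRNA counts in Ars2KD 1, 21.5% in Ars2KD 2, 3.74% in wKD 1 and 19.3% in wKD 2. The mean was 12.8% ± 12.3 in Ars2KD and 11.5% ± 11.0 in wKD (SD, n = 2 each), so the genotypes overlapped and the spread within each was about as large as its mean. The high and low libraries were told apart by their number: both libraries of number 2 were high and both of number 1 were low. The order against the follicle cell list differed in the same way. The named miRNAs were below that list in both libraries of number 1 and above it in both of number 2. Most of these counts belonged to 1 arm, miR-263a-5p, which made up 69.3% of the named counts in Ars2KD 1, 91.6% in Ars2KD 2, 70.9% in wKD 1 and 88.2% in wKD 2. Without both arms of miR-263a the rest held 1.24% of miRNA counts in Ars2KD 1, 1.79% in Ars2KD 2, 1.06% in wKD 1 and 2.27% in wKD 2.

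**Figure D1:**
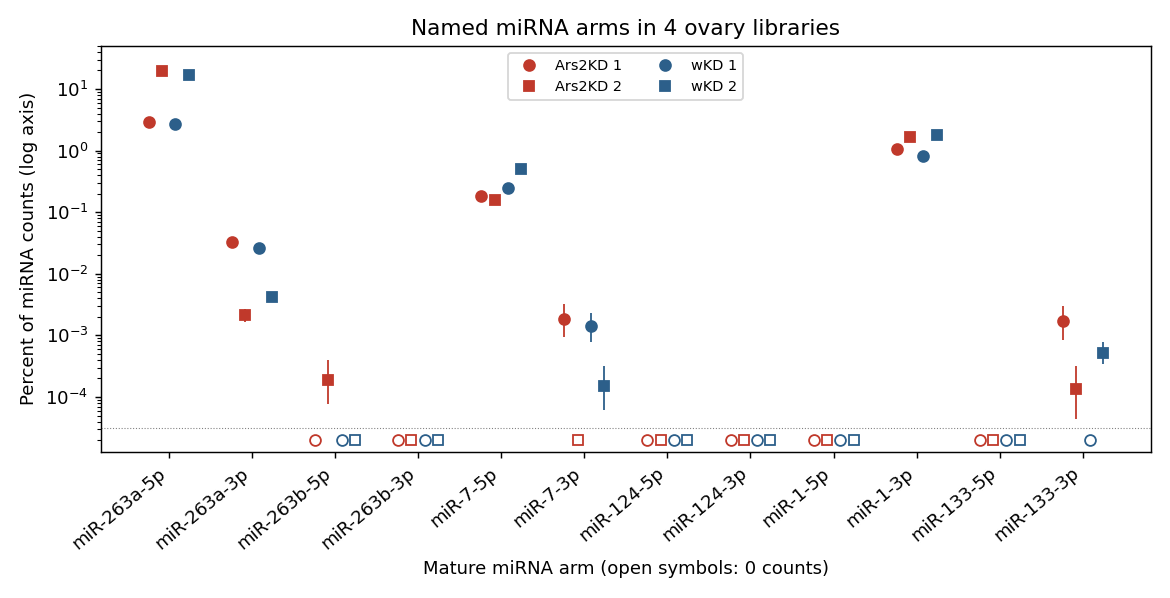
Percent of miRNA counts (log axis) held by each of the 12 named arms in each library, with exact 95% binomial intervals. Circles are libraries of number 1, squares of number 2, red Ars2KD, blue wKD, and open symbols under the dotted line mark 0 counts. miR-263a-5p lies highest, at 2.66% to 19.7%, miR-1-3p follows, and both arms of miR-124 are at 0 in all 4 libraries.

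Of the 12 arms, 7 had a count in any library and 5 had none, near the share over all loci, where 257 of 495 had a count. The order by mean share was miR-263a-5p, miR-1-3p, miR-7-5p and miR-263a-3p. These 4 kept this order within each of the 4 libraries. The lower neighbours, miR-133-3p, miR-7-3p and miR-263b-5p, did not separate beyond their spread. These values compare reads between arms of 21 to 24 nt, and length classes differed between numbers, as given below. They do not correct for unequal capture of different sequences in library construction, which was not measured here. In bulk tissue, fewer cells of a type and less of a miRNA per cell cannot be told apart.

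miR-263a lies on the minus strand of 2L (dm6), where the annotation names its hairpin mir-bft, after the bristle-loss mutant bereft (2L:11953410-11953503). It falls in an exon of lncRNA:CR43314 on the same strand. Its 5p arm (2L:11953463-11953486) is 24 nt long by its coordinates. miR-263a-5p had 18780 counts in Ars2KD 1, 724652 in Ars2KD 2, 28053 in wKD 1 and 775868 in wKD 2. These were 2.87% (exact 95% binomial interval 2.83 to 2.91), 19.7% (19.6 to 19.7), 2.66% (2.62 to 2.69) and 17.0% (17.0 to 17.1) of miRNA counts. It ranked 10 and 11 among all loci in Ars2KD 1 and wKD 1, and 2 in both libraries of number 2, behind miR-184-3p. The genotypes overlapped, with the libraries of number 1 low and those of number 2 high in both. From number 1 to number 2 its share was 6.85-fold higher in Ars2KD and 6.42-fold higher in wKD, against 1.08-fold and 1.16-fold from wKD to Ars2KD within number 1 and number 2.

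The arm dominated its length class. Loci of 24 nt held 5.86% and 5.06% of counts in Ars2KD 1 and wKD 1, and miR-263a-5p was 49.0% and 52.5% of these. In Ars2KD 2 and wKD 2 it was 99.6% and 99.4% of the counts of that class. The other 24 nt loci together held 2.98% in Ars2KD 1 and 0.0849% in Ars2KD 2, and 2.40% in wKD 1 and 0.0951% in wKD 2. Loci of this one length thus differed between numbers in both directions. Other length classes also differed between numbers. Loci of 23 nt held 41.8% and 44.9% in Ars2KD 1 and wKD 1, and 6.76% and 14.5% in Ars2KD 2 and wKD 2. Loci of 22 nt held 39.7% and 38.8% in Ars2KD 1 and wKD 1, and 64.6% and 59.6% in Ars2KD 2 and wKD 2. The part of length in these differences was not tested.

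Set against the leading member of the follicle cell list and of the germline and maternal list, miR-263a-5p again differed by number and little by genotype. There were 0.412 (Ars2KD 1), 2.37 (Ars2KD 2), 0.413 (wKD 1) and 2.34 (wKD 2) counts of it per count of the follicle cell miRNA miR-989-3p. Per count of the maternal miRNA miR-184-3p there were 0.240 (Ars2KD 1), 0.414 (Ars2KD 2), 0.230 (wKD 1) and 0.486 (wKD 2). Both ratios are free of scaling between libraries, and both were higher in the 2 libraries of number 2 than in the 2 of number 1.

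The 3p arm of miR-263a (2L:11953424-11953445, 22 nt) went the other way. It had 212 counts in Ars2KD 1, 78 in Ars2KD 2, 279 in wKD 1 and 191 in wKD 2, or 0.0324%, 0.00212%, 0.0264% and 0.00419% of miRNA counts. It was low in both libraries of number 2, in which its sister arm was high. Per read of the 3p arm there were 88.6 reads of the 5p arm in Ars2KD 1, 9290 in Ars2KD 2, 101 in wKD 1 and 4062 in wKD 2. The 3p share of the hairpin was 1.12% (exact 95% binomial interval 0.972 to 1.28) and 0.0108% (0.00851 to 0.0134) in Ars2KD, and 0.985% (0.873 to 1.11) and 0.0246% (0.0212 to 0.0284) in wKD. The mean log2 ratio of 5p to 3p was 9.83 ± 4.75 in Ars2KD and 9.32 ± 3.77 in wKD (SD, n = 2), a difference of 0.51 (two-sided exact permutation test, p = 1, where the smallest p this design allows is 0.333). The sign of that difference turned without Ars2KD 2 (-2.85) and without wKD 1 (-2.16).

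The arm balance of miR-263a differed by 105-fold between numbers in Ars2KD and by 40.4-fold in wKD. Among 41 hairpins with both arms counted in every library, this shift ranked 10 and 12 by size in Ars2KD and wKD. The median size of the shift over these hairpins was 3.93 and 3.63 on the log2 scale, and it ran in both directions, from -8.62 to 11.5 in Ars2KD and from -8.76 to 9.67 in wKD. A large shift of arm balance between numbers was thus common among hairpins in these libraries. The cause was not tested.

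**Figure D2:**
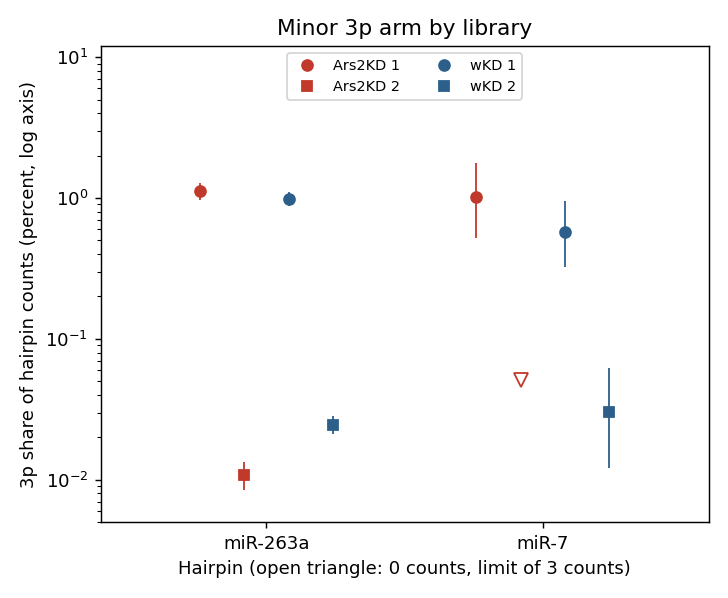
Share of hairpin counts from the minor 3p arm (percent, log axis) of miR-263a and miR-7 in each library, with exact 95% binomial intervals. The open triangle marks 0 counts of miR-7-3p in Ars2KD 2, drawn at the 0.0509% that 3 counts would give, and both hairpins have higher 3p shares in the libraries of number 1.

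miR-263b, the paralog on 3L (hairpin at 3L:15843406-15843495, in an intron of meru on the same strand), was close to absent. Its 5p arm had 7 counts in Ars2KD 2 and 0 in the other libraries, and its 3p arm had 0 in all 4. A count of 0 allows a share of up to 0.000459%, 0.0000815%, 0.000284% and 0.0000659% (3 counts) in Ars2KD 1, Ars2KD 2, wKD 1 and wKD 2. In Ars2KD 2 there were 103522 reads of miR-263a-5p per read of miR-263b-5p. Whether those 7 reads came from miR-263b or from misread copies of its paralog was not tested. Thus only one of the pair was abundant in these ovaries.

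The neural miR-124 (hairpin at 2L:17566370-17566469, in an exon of lncRNA:CR45919) had 0 counts on both arms in all 4 libraries. The limits are those given for miR-263b. The other list of miRNAs enriched in the head and nervous system was nearly as low, and none of its 20 loci exceeded 24 counts in a library. No count was found for 11 of them, but such loci were common, as only 257 of all 495 loci had a count in any library. The list summed to 31, 26, 40 and 35 counts in Ars2KD 1, Ars2KD 2, wKD 1 and wKD 2, or 0.00474%, 0.000706%, 0.00379% and 0.000768% of miRNA counts. Its most abundant member by mean share, miR-987-5p, had 10, 7, 11 and 24 counts in the same order. Markers of nervous tissue were thus at or near 0 in the libraries in which miR-263a-5p was a leading miRNA.

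**Figure D3:**
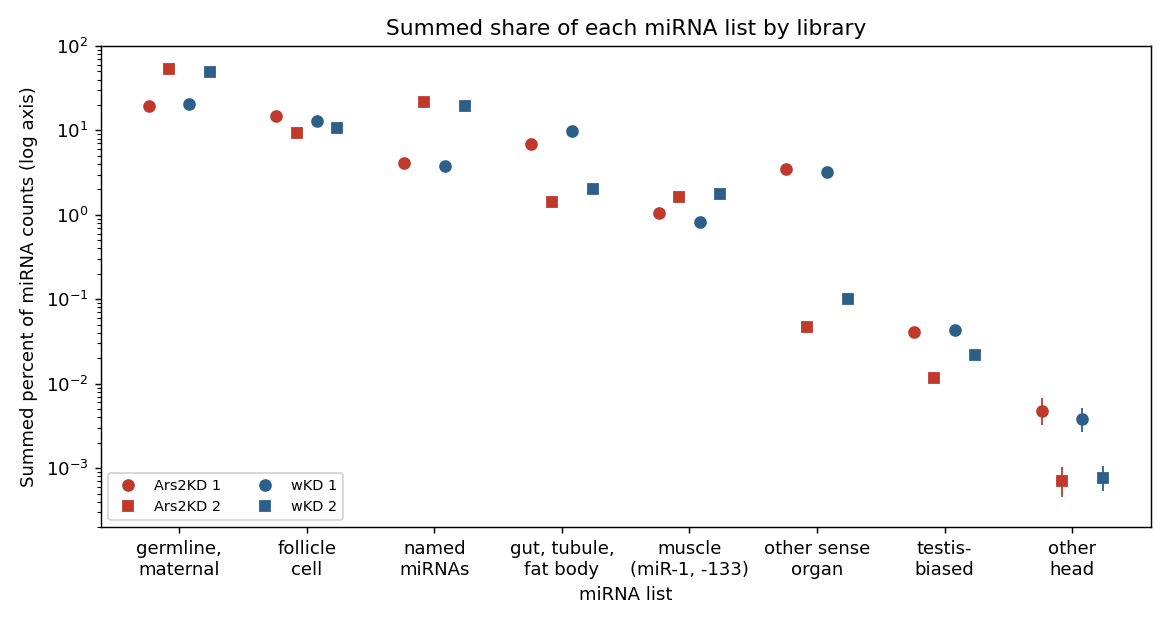
Summed percent of miRNA counts (log axis) of each miRNA list by library, with exact 95% binomial intervals and symbols for library and genotype as in the plot of single arms. The named miRNAs lie below the follicle cell list in the libraries of number 1 and above it in those of number 2, and the other head miRNAs stay under 0.005% in every library.

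miR-7 is encoded on the plus strand of 2R (hairpin at 2R:20606067-20606154) in an intron of HnRNP-K, an RNA-binding protein gene on the same strand. Its 5p arm (2R:20606081-20606103, 23 nt) had 1176 counts in Ars2KD 1, 5890 in Ars2KD 2, 2593 in wKD 1 and 23287 in wKD 2. As shares these were 0.180% (exact 95% binomial interval 0.170 to 0.191), 0.160% (0.156 to 0.164), 0.245% (0.236 to 0.255) and 0.511% (0.505 to 0.518). Both Ars2KD libraries lay below both wKD libraries, with means of 0.170% ± 0.0141 and 0.378% ± 0.188 (SD, n = 2). Within number 1 the log2 ratio of Ars2KD to wKD shares was -0.45 (95% counting interval -0.55 to -0.35), and within number 2 it was -1.68 (-1.72 to -1.63). It was the only named arm whose groups did not overlap by share, of the 6 that passed the filter on low counts. By the same measure 7.24% of the 152 tested loci were lower and 1.32% higher. After scaling by TMM, a method that sets libraries level on their typical locus, the groups overlapped, at 812 and 5159 CPM for the Ars2KD pair and at 1111 and 7768 CPM for the wKD pair (CPM, normalised read counts on the edgeR scale). By that measure 1.32% of loci were lower and 1.97% higher. On the TMM scale Ars2KD still lay below wKD within each number, with log2 ratios of -0.45 and -0.59 within number 1 and number 2. The log2 ratio of number 2 to number 1 was -0.17 in Ars2KD and 1.06 in wKD by share, and 2.67 and 2.81 after TMM. The overlap thus appeared with the larger difference between numbers on the TMM scale.

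The 3p arm of miR-7 (2R:20606121-20606142) had 12, 0, 15 and 7 counts in Ars2KD 1, Ars2KD 2, wKD 1 and wKD 2. Its share of the hairpin was 1.01% and 0.575% in Ars2KD 1 and wKD 1 and 0.0301% in wKD 2. The 0 in Ars2KD 2 allows up to 0.0509%. Like miR-263a, this hairpin had less of its minor arm in the libraries of number 2, though on few counts.

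miR-1 lies on 2L (hairpin at 2L:20487441-20487531) in an exon of lncRNA:CR45361 on the same strand. Its 3p arm (2L:20487496-20487517, 22 nt) had 6908 counts in Ars2KD 1, 60086 in Ars2KD 2, 8607 in wKD 1 and 80176 in wKD 2. These were 1.06% (exact 95% binomial interval 1.03 to 1.08), 1.63% (1.62 to 1.65), 0.815% (0.798 to 0.832) and 1.76% (1.75 to 1.77) of counts, and its ranks were 18, 7, 22 and 12. The genotypes overlapped, with means of 1.34% ± 0.407 in Ars2KD and 1.29% ± 0.669 in wKD (SD, n = 2). In number 2 its share was 1.54-fold that of number 1 in Ars2KD and 2.16-fold in wKD, less than for miR-263a-5p. Its 5p arm had 0 counts in all libraries, so with 80176 reads of the 3p arm in wKD 2 the 5p arm made up at most 0.00374% of the hairpin (3 counts).

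miR-133, the other muscle miRNA, lies 129085 bp from miR-1 on 2L (hairpin at 2L:20616617-20616714), in an intron of lncRNA:CR44909 on the opposite strand. Its 3p arm had 11, 5, 0 and 24 counts in Ars2KD 1, Ars2KD 2, wKD 1 and wKD 2, or at most 0.00168% of counts, and its 5p arm had none. The muscle pair thus split into an abundant and a barely counted member, and nearly all muscle-list counts were miR-1-3p.

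The comparison of genotypes asked whether germline knockdown of Ars2 changed these miRNAs. The edgeR quasi-likelihood test called 0 of the 6 named arms that passed the filter on low counts, where the background was 0% of the 152 tested loci. At an unadjusted p under 0.05 there were 0 of the 152 loci, and DESeq2 also called 0. miR-263a-5p had an Ars2KD to wKD ratio of 1.26 on the log2 scale (SE 2.32, adjusted p = 0.997 in edgeR), and its value went to -3.39 without Ars2KD 2. miR-1-3p had 0.92 (SE 1.90) and went to -1.68 without the same library. miR-7-5p had -0.57 (SE 1.77), and went to 0.14 without Ars2KD 1 and to 1.23 without wKD 2. Leaving out 1 library makes the numbers unbalanced between genotypes, so these changed values also hold the difference between numbers. The minor arms had 0.23 (SE 1.52) for miR-263a-3p, 0.57 (SE 2.64) for miR-133-3p and -0.06 (SE 2.65) for miR-7-3p, each also with an edgeR adjusted p of 0.997. Of the 6 arms, 4 had a ratio above 0 and the median was 0.40, against 83 of 152 and a median of 0.06 over all tested loci. These ratios depended on the scale: with libraries scaled to their miRNA totals alone, the median of all loci moved to -0.18, miR-263a-5p had 0.20, miR-1-3p 0.06 and miR-7-5p -1.15. An SE of 1.52 to 2.65 on the log2 scale leaves even large differences undetectable in this comparison, which does not take library number into account.

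Libraries of one genotype differed more from each other than same-numbered libraries of both genotypes did, over the table as a whole. Among 126 tested loci with a count in every library, the median size of the log2 share ratio was 3.08 between the numbers in Ars2KD and 2.27 in wKD, against 0.35 and 1.05 between genotypes within number 1 and number 2. Shares were higher in number 2 for 24 of these loci in Ars2KD and for 34 in wKD. miR-263a-5p, at 2.78 and 2.68, ranked 8 and 7 from the top. miR-1-3p ranked 20 in both genotypes at 0.63 and 1.11, miR-7-5p ranked 26 and 22 at -0.17 and 1.06, and miR-263a-3p ranked 81 in both at -3.94 and -2.65. Most loci had lower shares in number 2, and the 3 abundant named arms lay in the upper part of this range.

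**Figure D4:**
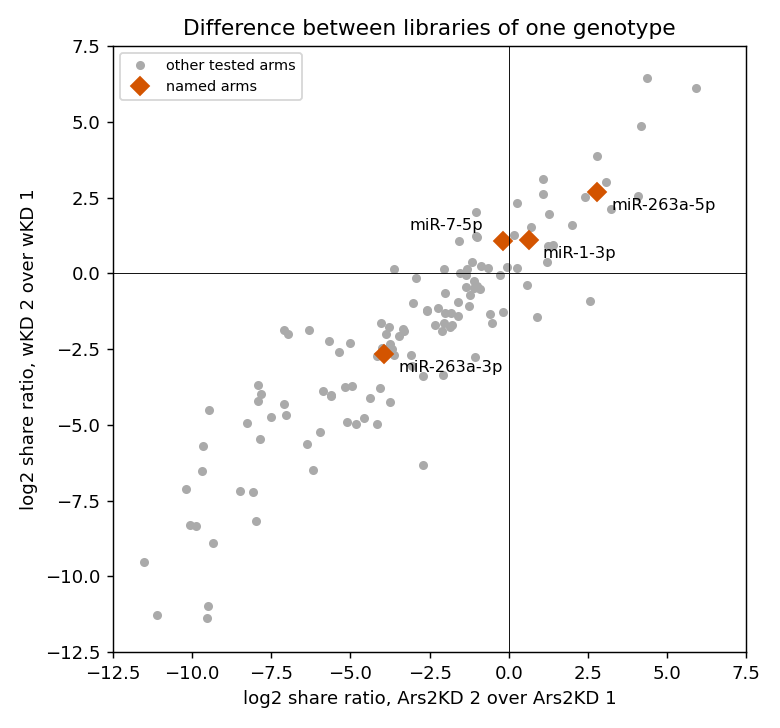
Log2 ratio of each locus's share in library number 2 to that in number 1, within Ars2KD (x axis) and within wKD (y axis), for 126 tested loci with a count in all 4 libraries. miR-263a-5p lies at 2.78 and 2.68, above most loci, while miR-263a-3p from the same hairpin lies at -3.94 and -2.65.

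The list of other sense organ miRNAs had the opposite pattern to miR-263a-5p. Its leading member miR-279-3p, which shapes sensory neuron fate in the fly, held 2.23% and 1.91% of counts in Ars2KD 1 and wKD 1 and 0.00269% and 0.0207% in Ars2KD 2 and wKD 2. The 6 loci of that list, which hold miR-9a, miR-279 and miR-996, summed to 3.51%, 0.0475%, 3.21% and 0.101% in Ars2KD 1, Ars2KD 2, wKD 1 and wKD 2. The list for gut, Malpighian tubule and fat body, tissues that a dissected ovary could carry along, summed to 6.86%, 1.42%, 9.96% and 2.04%, led by miR-305-5p. The sum was lower in number 2, but its members differed in direction. Of its 10 loci with a count in every library, 6 had a lower share in number 2 in both genotypes, among them miR-305-5p (log2 ratios of -6.38 in Ars2KD and -5.64 in wKD) and miR-275-3p (-1.60 and -1.41). The other 4 had a higher share in number 2 in both, as did miR-263a-5p. These were miR-281-2-5p (2.41 and 2.50), miR-281-1-5p (1.41 and 0.94), miR-278-5p (1.10 and 2.61) and miR-275-5p (0.70 and 1.52). The testis-biased list, led by miR-964-5p, stayed at or under 0.0434% in each library. The part of other tissues in the level of miR-263a-5p was not tested.

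The loci with the profile most like that of miR-263a-5p were found by the distance between centred log2 CPM over the 4 libraries. They were miR-281-2-5p, a member of the gut, Malpighian tubule and fat body list, at 0.29, miR-92b-3p at 0.66 and miR-14-5p at 0.79, against a median of 5.84 over the other tested loci. There were 64.8, 83.3, 68.4 and 77.4 reads of miR-263a-5p per read of miR-281-2-5p in Ars2KD 1, Ars2KD 2, wKD 1 and wKD 2. That pair kept nearly the same ratio in libraries in which both shares differed several-fold. Such a steady ratio follows from choosing miR-281-2-5p as the closest profile over these same libraries, and is no separate result. Reads of miR-281-2 may be shared with the similar miR-281-1, so its counts are uncertain. The 2 loci of miR-281-3p, also in the gut list, had 0 counts in all 4 libraries. Whether reads that match several loci were left out of the counts was not tested, and if so the shares given here lack them. For miR-1-3p the closest were miR-11-5p at 0.48, miR-284-5p at 0.55 and the follicle cell miRNA miR-989-3p at 0.71 (median 3.99). For miR-7-5p they were miR-318-3p, another follicle cell miRNA, at 0.66, miR-275-5p at 0.72 and miR-375-3p at 0.72 (median 3.80). For miR-133-3p, on few counts, they were miR-965-5p at 1.63, miR-4969-5p at 1.86 and miR-11-3p at 1.91 (median 3.81). With 4 libraries that fall into 2 numbers, such likeness cannot be told apart from the difference between numbers.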

How the data were processed

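The authors deposited raw counts per mature miRNA locus and raw counts of 24 to 29 nt reads per repeat copy, and both tables were used as deposited. Per the labels, small RNAs of 19 to 29 nt were selected on a gel before library construction. Per the submitters' processing notes, the tools were Bowtie2, featureCounts, FastQC and Trimmomatic, on build dm6. For tool settings and reads with several positions, no statement was given in the sources used here. Loci were annotated with the Ensembl BDGP6 annotation, and the coordinates of all 12 named arms matched annotated mature products exactly. Mature sequences were not used here.

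Shares are percent of a library's miRNA counts, with exact 95% Clopper-Pearson intervals. These intervals, and the floor of 3 counts for a value of 0, are for counting error alone, because PCR reads that lack molecular identifiers do not stand for separate molecules. Genotypes were compared with the quasi-likelihood test of edgeR 4.0.16 under R 4.3.3 (TMM scaling, filterByExpr with a minimum count of 10, no replicate block, Benjamini-Hochberg adjustment over all tested loci, adjusted p under 0.05). Since replicates may be technical, p-values reflect no more than the spread of these libraries. DESeq2 1.42.0, other scaling, no filter, the replicate block and leaving out each library were alternatives. Profile distances used log2 CPM computed here with a prior count of 2. Named items were all arms of the 6 miRNAs, the leading member of each list, further list members that show differing directions, and the 3 closest profiles per miRNA. The miRNAs and lists were chosen with earlier results of these data known. Number of sample columns not used: 0.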

Additional observations from a re-analysis of the deposited data

How the results depend on the processing

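No locus passed the threshold under any alternative (0 calls each). With the replicate block 0 loci passed, and 8 had an unadjusted p under 0.05. In that fit miR-263a-5p had a log2 ratio of 0.70 (SE 0.82), miR-1-3p 0.67 (SE 0.61) and miR-7-5p -0.52 (SE 0.56). Deviations from the group means correlated by 0.90 between same-numbered libraries over 152 loci, which is a hint from the data and not part of the design. Leaving out 1 library gave log2 ratios from -3.39 to 4.54 for miR-263a-5p, -0.50 to 0.77 for miR-263a-3p and -1.68 to 2.76 for miR-1-3p. The ranges were -0.40 to 6.28 for miR-133-3p, -2.46 to 1.23 for miR-7-5p and -6.27 to 0.88 for miR-7-3p. Each ratio changed sign, but with 1 library left out the numbers were unbalanced, so the difference between numbers enters these values. The 5p to 3p difference of miR-263a ranged from -2.85 to 3.86 with 1 library left out, under the same imbalance. With scaling to table totals miR-7-3p turned to 0.21. As an alternative, miR-184-3p was left out of the total and of the germline list. The mean share in Ars2KD then went to 22.8% for the 6 miRNAs, 2.41% without miR-263a and 2.16% for the muscle pair. It went to 10.3% for the germline list and 17.3% for the follicle cell list. In wKD it went to 17.0% for the 6, 15.9% for the germline list and 15.5% for the follicle cell list. The germline values thus lack the leading member of that list, and the other shares rose with the smaller total. Adding the 24 to 29 nt repeat counts to the total gave 12.2% and 10.8% for the 6. With 2 libraries per genotype and this spread, the low counts of miR-133, miR-263b and miR-7-3p allow no comparison.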
